A study of Homo sapiens with 79 samples.

Results

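The 9 genes described here are regulators and markers of the retinal ganglion cell (RGC), the neuron whose axons form the optic nerve. They are the transcription factors ATOH7, POU4F2, ISL1, EBF1 and EBF3, the RNA-binding proteins ELAVL3, ELAVL4 and RBPMS, and the synuclein SNCG. They were taken by symbol from the 24414 gene rows of a count table of single cells, and all 9 were present. The cells came from retinal organoids of the established human embryonic stem cell line H9, in its CRX-GFP reporter form. All groups shared 1 differentiation protocol, with the ROCK inhibitor Y27632 at the start and later foetal calf serum, T3, taurine and retinoic acid. The groups differ by the day of differentiation, and of the 1976 cells in all, 661 were of day 90 on 1 Fluidigm C1 chip, 356 and 381 were of day 200 on the chips called a and b, and the others were of day 60 on 1 chip. Day 60 was the comparator of both later days. Organoids are a culture model without an optic nerve or brain targets for RGC axons.

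RGCs are the first neurons born in the vertebrate retina. The proneural factor ATOH7 makes progenitors competent for this fate, and POU4F2 and ISL1 then act side by side to switch on genes for axon growth and RGC identity. EBF factors, ELAVL proteins and SNCG also mark neurons outside the retina, so a cell with 1 of these genes is not by that fact an RGC. RBPMS marks mature RGCs in the retina and is also made by smooth muscle and other contractile or mesenchymal cells.

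The promoters of the 3 core regulators are shown because bHLH proteins such as ATOH7 bind E-boxes, CANNTG, which are in capitals. Each is the RefSeq window from 250 bases before to 50 bases after the gene start on GRCh38.p14, 5′ to 3′ on the gene's own strand. The windows lie at chr10:68232064-68232363 (minus strand), chr4:146638643-146638942 (plus strand) and chr5:51383198-51383497 (plus strand).
ATOH7: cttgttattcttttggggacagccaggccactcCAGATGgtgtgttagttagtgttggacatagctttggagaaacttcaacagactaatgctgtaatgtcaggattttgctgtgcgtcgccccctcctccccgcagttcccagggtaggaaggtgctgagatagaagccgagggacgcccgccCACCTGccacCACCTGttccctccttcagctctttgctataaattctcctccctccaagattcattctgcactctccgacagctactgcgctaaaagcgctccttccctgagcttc
POU4F2: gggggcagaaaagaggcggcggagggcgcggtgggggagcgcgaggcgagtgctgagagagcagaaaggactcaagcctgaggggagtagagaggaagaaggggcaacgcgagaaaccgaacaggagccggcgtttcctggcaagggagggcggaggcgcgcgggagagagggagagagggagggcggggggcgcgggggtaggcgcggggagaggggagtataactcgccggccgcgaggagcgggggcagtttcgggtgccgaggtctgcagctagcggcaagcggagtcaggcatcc
ISL1: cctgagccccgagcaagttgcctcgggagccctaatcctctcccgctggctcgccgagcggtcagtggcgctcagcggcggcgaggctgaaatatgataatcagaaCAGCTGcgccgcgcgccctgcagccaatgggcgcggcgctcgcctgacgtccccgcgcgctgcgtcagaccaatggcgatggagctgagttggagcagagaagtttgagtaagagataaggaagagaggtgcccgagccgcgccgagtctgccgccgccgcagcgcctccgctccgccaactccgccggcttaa
The ATOH7 window held 3 E-boxes, the ISL1 window 1 and the POU4F2 window 0. Of 35116 RefSeq windows of this length, 68.7% held at least 1 E-box and 15.3% at least 3, counted in the same way. The motif reads the same on both strands in its fixed letters, so 1 pass covers both. A match is a stretch of letters and not a measured binding site.

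By GENCODE 44 on GRCh38 the genes lie at the places given here. The core factors are ATOH7 at chr10:68230595-68232113 (minus strand), POU4F2 at chr4:146638893-146642474 (plus strand) and ISL1 at chr5:51383448-51394730 (plus strand). The other factors are EBF1 at chr5:158695920-159099916 (minus strand) and EBF3 at chr10:129835233-129973053 (minus strand). The RNA-binding genes are ELAVL3 at chr19:11451326-11481046 (minus strand), ELAVL4 at chr1:50024029-50203772 (plus strand) and RBPMS at chr8:30384511-30572256 (plus strand), and the last is SNCG at chr10:86958599-86963258 (plus strand).

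The 79 samples are the columns of the chips, 19 at day 60 and 20 on each other chip, with 3414268 to 7999822 reads per column and a median of 160343 to 251929 reads per cell. Columns and cells of a chip are not replicates. A second chip exists for day 200 alone, so no test was made between days. The same 40 row barcodes were used in the columns, and none occurred more than once within a column. Chip a stood apart, with a median of 1666 genes per cell against 2770 to 3120 on the others at equal depth and 22 called doublets against 0 to 2 elsewhere. Levels are reads of a gene scaled to library size (CPM), summed over the cells of a chip. Intervals are 95%, exact Poisson for CPM and exact binomial for shares, and reflect counting error alone, as the reads carry no molecular identifiers and can be copies of 1 molecule. For a count of 0, the share it allows is given as 3 counts of the total. Shares of cells with a read are given after thinning each cell to 50000 reads, unless stated otherwise.

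ATOH7 was highest at day 60 and nearly gone by day 200. Its level was 27.2 CPM at day 60, 6.22 at day 90, and 1.11 and 0 on chips a and b. Over the day 60 columns the lowest, median and highest values were 0.748, 28.7 and 61.6 CPM, and at day 90 they were 0, 0.588 and 58.3 CPM. The columns of the 2 days overlapped, and a single cell held 34.2% of the ATOH7 reads of day 90. A read was found in 10.0% of day 60 cells (7.71 to 12.8) and in 2.29% of day 90 cells (1.29 to 3.75). On chip a the share was 1.12%, and on chip b 0 of 381 cells had a read, which allows a share of up to 0.787%.

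POU4F2, the POU-domain factor that follows ATOH7 in RGC precursors, was read at day 60, not detected on 2 later chips and read in a few cells of the last. Its level was 19.2 CPM at day 60, 0 at day 90, and 0 and 7.90 on chips a and b. At day 60 the columns ran from 0 through a median of 16.0 to 68.7 CPM, with 17 of 19 columns above 0. On chip b, 15 of 20 columns were at 0 and the highest reached 76.8 CPM. A read was found in 8.30% of day 60 cells (6.19 to 10.9). None of the 661 cells of day 90 had a read before thinning, and 0 of 655 at equal depth allows up to 0.458%. On chip b, 5 of 381 cells had a read, and 1 cell held 48.5% of all POU4F2 reads of that chip. Relative to day 60, the level was 2.43-fold lower on chip b. Set against 3 reads per chip, the ratios were 742 for day 90 and 619 for chip a. They are not lower limits on the fold, since a single cell can hold many reads. Day 60 cells with a read before thinning had a median of 115 CPM.

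ISL1, the LIM-homeodomain partner of POU4F2, is also used by bipolar, amacrine and horizontal cells. It stood at 19.4 CPM at day 60, 4.16 at day 90, and 7.98 and 7.25 on chips a and b. The day 60 columns ran from 0 through 15.8 to 68.8 CPM, and 5 of 19 were at 0. The share of cells with a read was 5.36% (3.67 to 7.53) at day 60 and 1.68% at day 90, and 5 and 3 cells with a read were found on chips a and b. The day 200 level rested on few cells, since 1 cell gave 60.1% of the ISL1 reads of chip a and another 68.2% of those of chip b. Without that cell the levels were 3.19 and 2.31 CPM.

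EBF1 and EBF3 are helix-loop-helix factors of differentiating neurons. EBF1 was 34.7 CPM at day 60, 5.62 at day 90, and 0 and 11.4 on chips a and b. Every day 60 column held EBF1 reads, from 3.67 through 24.5 to 97.9 CPM, and all 20 columns of chip a were at 0. Its share of cells was 13.1% (10.5 to 16.2) at day 60, 3.82% at day 90 and 3.94% on chip b. EBF3 was at a lower CPM and differed least between days 60 and 90, with 5.42 CPM at day 60 (4.99 to 5.89), 5.07 at day 90 (4.67 to 5.50), and 0 and 2.47 on chips a and b. The intervals of the first 2 overlap, while the share of cells was 6.06% at day 60 and 3.66% at day 90. At day 200, 15 cells with EBF1 (2.22 to 6.41%) and 6 with EBF3 (0.580 to 3.40%) were found on chip b and none on chip a, where the exact interval reaches 1.03%, so the intervals overlap for EBF3 and 1 cell held 38.2% of its chip b reads.

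**Figure D1:**
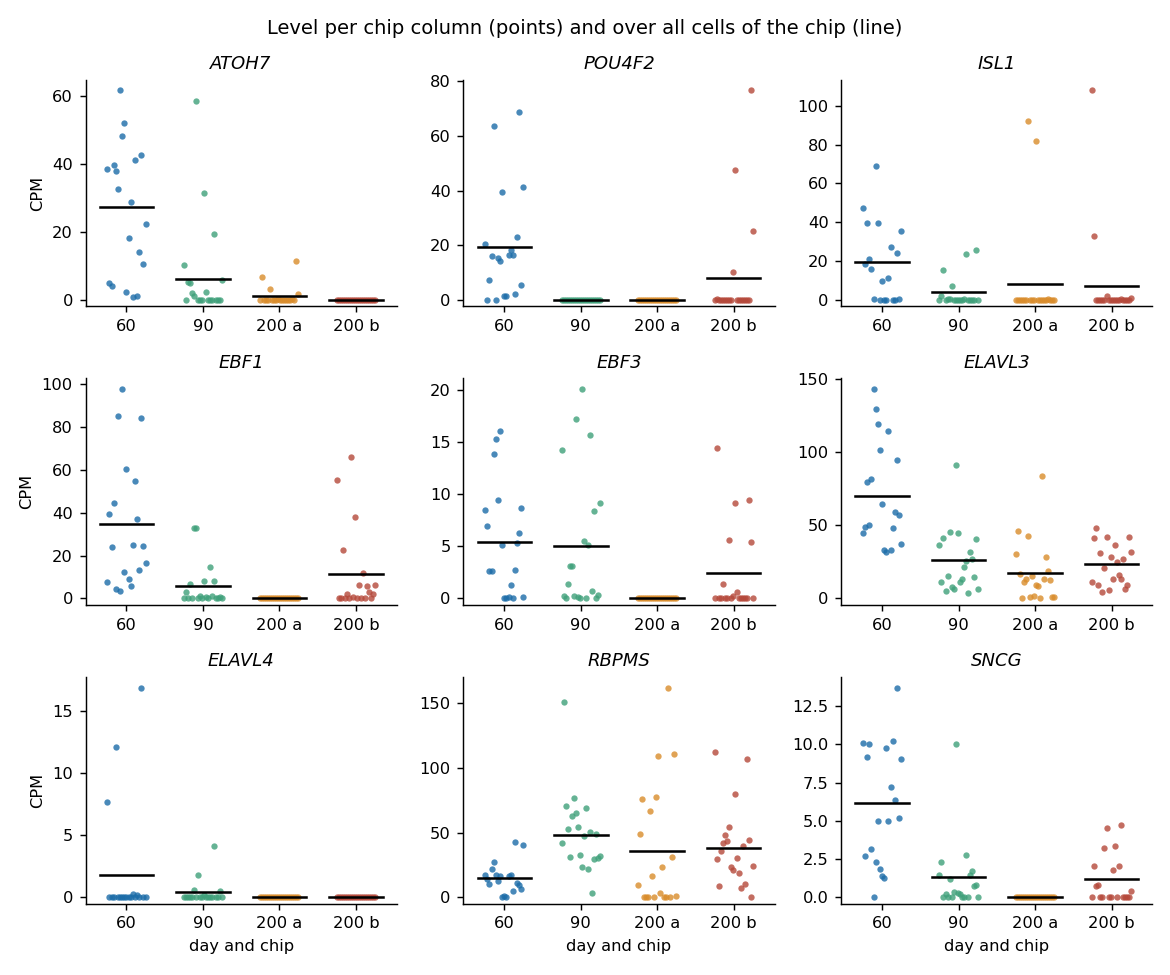
CPM of each of the 9 genes (y axis) by day and chip (x axis); points are the chip columns, 19 at day 60 and 20 on each other chip, and the line is the level over all cells of the chip. ATOH7, POU4F2, ISL1, EBF1 and ELAVL3 have their highest line at day 60, RBPMS has its lowest there, and the columns of a chip spread widely.

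ELAVL3 and ELAVL4 are neuronal RNA-binding proteins of the Hu family. ELAVL3 had the widest reach of the 9 genes at day 60, with a read in 43.9% of cells (39.9 to 48.1). Its level was 69.7 CPM at day 60, 26 at day 90, and 17.1 and 23.6 on chips a and b. The day 60 columns ran from 31.6 through 59.1 to 143 CPM, and those of day 90 from 3.46 through 18.4 to 91.1 CPM, so the columns overlapped. In later cells a read was found in 19.2% at day 90, and 10.1% and 22.6% on chips a and b. ELAVL4 was close to the limit of detection, with 192 reads in 6 cells of day 60, 46 reads in 6 cells of day 90 and no read at day 200. Its levels were 1.83 and 0.397 CPM.

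SNCG, gamma-synuclein, was read in many cells at a low level. It stood at 6.15 CPM at day 60, 1.30 at day 90, and 0 and 1.22 on chips a and b. Its share of cells was 13.3% (10.7 to 16.4) at day 60, 1.98% at day 90 and 1.84% on chip b. The day 60 columns ran from 0 through 5.20 to 13.7 CPM. SNCG overlaps MMRN2 on the opposite strand, and as the counting parameters name no strand setting, reads of such pairs cannot be told apart. MMRN2 had 54 reads in all cells against 904 of SNCG.

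RBPMS moved the other way. Its level was 15.2 CPM at day 60, 47.8 at day 90, and 35.9 and 38 on chips a and b. The columns ran from 0 through 13.8 to 42.9 CPM at day 60 and from 3.25 through 48.2 to 151 CPM at day 90. Cells with a read made up 11.9% (9.41 to 14.9) on day 60 and 20.6% (17.6 to 23.9) on day 90, and 6.74% and 17.1% on chips a and b. Chip a therefore had a higher summed level than day 60 from a smaller share of cells. The antisense gene RBPMS-AS1 overlaps it, with 305 reads against 13981 of RBPMS.

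**Figure D2:**
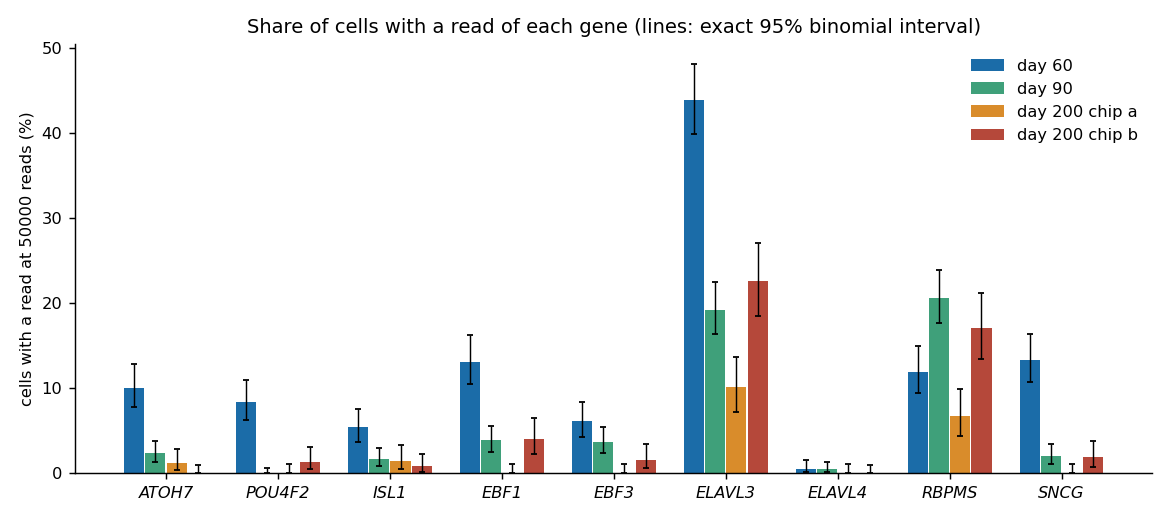
Percentage of cells with at least 1 read of each gene after thinning to 50000 reads (y axis) for the 9 genes (x axis), with 1 bar per chip and lines for exact 95% binomial intervals. The share is highest at day 60 for 7 genes, for ELAVL4 it is at most 0.519%, and RBPMS is highest at day 90 with 20.6%.

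Genes were compared per kilobase of exon, taken over all annotated transcripts of a gene, from 1264 bases for SNCG to 8894 for RBPMS. This length can exceed that of the transcript made, so the order of the genes is approximate. By this measure ATOH7 (17.9 CPM per kb) and ELAVL3 (14.6) led at day 60. ISL1 (6.88), POU4F2 (6.11), EBF1 (5.49) and SNCG (4.86) formed a middle group, whose columns within the day overlapped. RBPMS (1.70), EBF3 (0.714) and ELAVL4 (0.219) came last. At day 90 the order changed, with ELAVL3 (5.46) and RBPMS (5.38) first and ATOH7 (4.10) after them. At day 200 ELAVL3 and RBPMS were again first, at 3.60 and 4.03 on chip a and 4.96 and 4.28 on chip b.

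A row was called when log2((CPM + 5)/(CPM of day 60 + 5)) reached a 2-fold change, among the 12365 rows with a mean of at least 5 CPM over the 4 chips. Of the 9 genes, 6 passed this filter, and EBF3, ELAVL4 and SNCG did not. At day 90, 5 of these were lower, where 4.28% of all rows were lower. The log2 changes were -1.52 for ATOH7, -2.28 for POU4F2, -1.41 for ISL1, -1.90 for EBF1 and -1.27 for ELAVL3. RBPMS was higher at 1.39, where 6.76% of all rows were higher. ATOH7, POU4F2, ISL1 and EBF1 would have missed the minimum without their day 60 reads, so the count is a description and supports nothing further. Sums over a chip cannot tell fewer cells with a gene from less RNA per cell, which is why shares of cells stand beside them.

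At day 200 both chips had to pass on their own, and 3 genes were called lower, where 2.18% of all rows were lower. ATOH7 changed by -2.40 on chip a and -2.69 on chip b, EBF1 by -2.99 and -1.27, and ELAVL3 by -1.76 and -1.38. RBPMS was called higher, at 1.02 and 1.09, where 4.80% of all rows were higher. POU4F2 was not called, at -2.28 and -0.91 on chips a and b, nor was ISL1, with -0.91 and -0.99. The 2 chips lay furthest apart for EBF1 (SD 1.21 on the log2 scale) and POU4F2 (SD 0.97), and closest for RBPMS (SD 0.05). With the cell that held most reads of each row left out, a setting chosen after seeing the data, 5 genes were lower, POU4F2 and ISL1 added. In that setting the mean change of RBPMS over the chips was 0.98, so its call as higher was lost.

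The HOX genes, which pattern hindbrain and spinal cord and are silent in retina, moved with these genes. All 28 HOX genes of the table summed to 975 CPM at day 60 (columns 583 to 1443), 139.7 at day 90 (19.0 to 463), 128 on chip a (0.212 to 379) and 380.1 on chip b (105 to 1020.4). Of them 1, 9, 15 and 9 were at 0 in that order. All 15 that passed the filter were lower at day 90 and 9 at day 200. The 8 retinal identity factors, among them RAX, SIX6 and PAX6, summed to 1566 CPM at day 60 and 1651 to 1937 later, and 0 of the 8 were called in either comparison. The part of the HOX-positive cells in the lower levels was not tested.

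Several of the 9 genes occurred in the same day 60 cells. At least 1 was read in 64.5% of the day 60 cells, at least 2 in 28.4% and at least 3 in 69 cells, or 11.9% (9.41 to 14.9). The richest cells were 2 with 7 of the genes. At day 90 at least 3 were read in 12 of 655 cells (1.83%), on chip a in 0 of 356, which allows up to 0.843%, and on chip b in 3 of 381 (0.787%). Of the 5 transcription factors, at least 2 were read together in 53 cells at day 60, 10 at day 90, and 0 and 1 on chips a and b. All these counts depend on the share of each single gene, such as the 43.9% of ELAVL3 at day 60. Counts for genes read independently of each other were not computed, so these numbers alone do not show that the genes go together.

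POU4F2 and ISL1 formed the closest pair. ISL1 was read in 31.2% of the 48 cells with POU4F2 (18.7 to 46.3) and in 3.02% of the other day 60 cells (1.74 to 4.86), a phi coefficient of 0.346, which is the correlation of detection over the day 60 cells. SNCG was read in 45.8% of cells with POU4F2 against 10.4% without (phi 0.288). POU4F2 was read in 29.3% of the 58 cells with ATOH7 against 5.96% without (phi 0.254). These points share 1 chip and its depth, and phi is given as a description.

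ATOH7 acts before POU4F2 and ISL1 in RGC formation, and the overlaps of these factors had different sizes. Of the 103 cells with at least 1 of these factors, 39 had ATOH7 alone, 22 POU4F2 alone and 14 ISL1 alone. ATOH7 and POU4F2 without ISL1 were read in 11 cells, POU4F2 and ISL1 without ATOH7 in 9, ATOH7 and ISL1 without POU4F2 in 2, and all of them in 6. The ATOH7 and ISL1 pair had a phi of 0.125, below both pairs with POU4F2.

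EBF1 was read with the core factors POU4F2 and ISL1 and with the neuronal ELAVL3. Its phi was 0.226 with ISL1, 0.217 with POU4F2, 0.213 with ELAVL3 and 0.202 with EBF3, and 0.0575 with ATOH7. RBPMS stood apart from all, with phi from -0.0487 to 0.0439 over its 7 pairs. Of the 28 pairs without ELAVL4, 15 had a phi above 0.1. In 13 of the 28, the interval of the share with the partner lay above that without it. Pairs of other genes were not counted in this way. The counts therefore do not show that these genes go together more than other genes do. At day 90, ELAVL3 was read in 15 of the 25 cells with EBF1 (38.7 to 78.9%) and in 17.6% of the other cells (14.7 to 20.8).

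**Figure D3:**
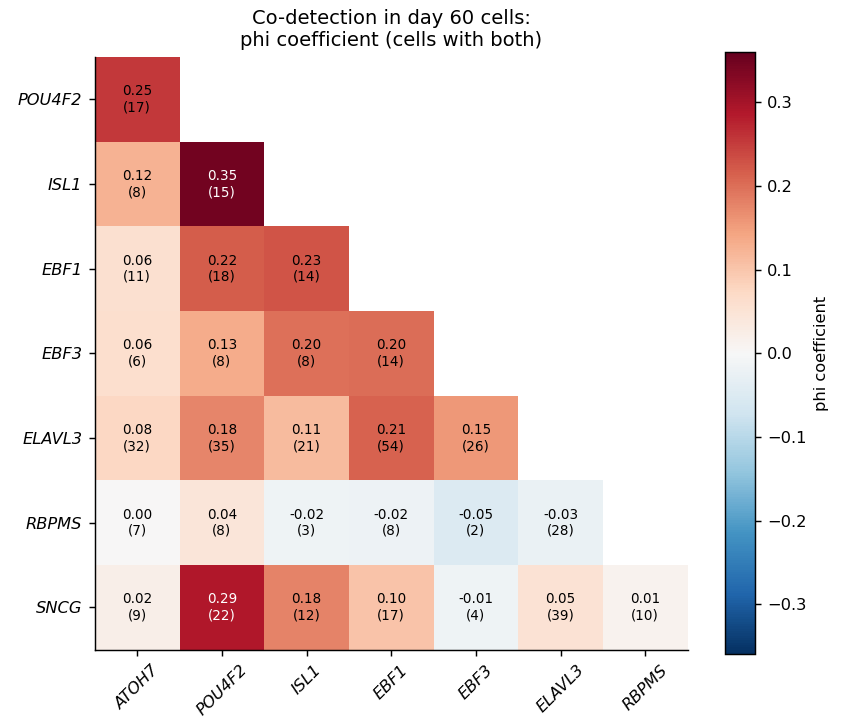
Phi coefficient of detection for the 28 pairs of 8 genes over the day 60 cells (colour and upper number), with the number of cells that held both in parentheses. POU4F2 with ISL1 is darkest at 0.346 and 15 cells, and the RBPMS cells of the map are near 0.

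Cells with POU4F2 held retinal identity factors more often, and those with ELAVL3 held HOX genes more often, than the cells without them. Cells with reads of at least 3 HOX genes made up 43.6% of all day 60 cells (39.5 to 47.8). They were 29.2% of the cells with POU4F2 (17.0 to 44.1), 22.6% of those with ISL1 (9.59 to 41.1) and 36.2% of those with ATOH7 (24 to 49.9). They were 52.8% of the cells with ELAVL3 (46.4 to 59), against 36.4% of the cells without it (31.2 to 41.9). For ATOH7 or POU4F2 the share was 30 of 89 cells (33.7%, 24 to 44.5) against 45.4% of the rest, and for EBF1 or EBF3 it was 51 of 97 (52.6%, 42.2 to 62.8) against 41.8%, and both intervals overlap those of the rest.

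Reads of at least 3 of the 8 retinal identity factors gave the mirror image. They were found in 95.8% of the cells with POU4F2 (85.7 to 99.5) and 73.4% of those without it (69.4 to 77.1). The share was 93.5% with ISL1 and 86.2% with ATOH7. With ELAVL3 it was 66.1% (60.0 to 71.9), against 82.4% without it (77.8 to 86.4). EBF1, EBF3, SNCG and RBPMS, between 71% and 77.1%, were near the 75.3% of all cells.

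**Figure D4:**
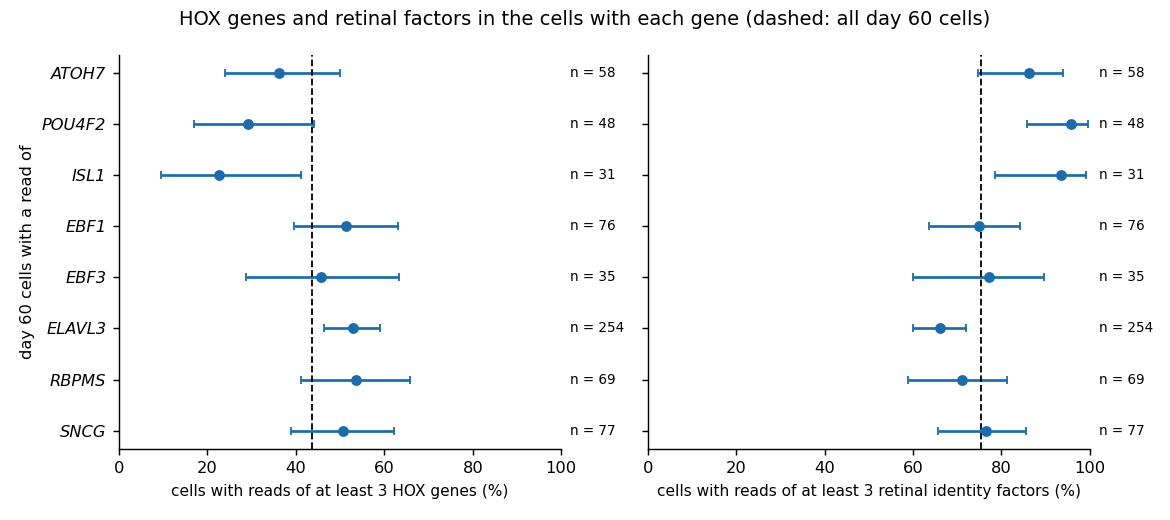
Percentage of day 60 cells with reads of at least 3 HOX genes (left, x axis) or at least 3 retinal identity factors (right, x axis), among the cells with a read of each gene (y axis, number of cells at the side). Points have exact 95% binomial intervals and the dashed line is all day 60 cells, at 43.6% and 75.3%. POU4F2 and ISL1 lie lowest on the left and highest on the right.

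ATOH7 cells also held markers of other early retinal fates. Reads of at least 3 of 8 photoreceptor genes, such as CRX, OTX2 and RCVRN, were found in 26.8% of the 41 cells with ATOH7 and no POU4F2 (14.2 to 42.9), against 6.89% of the others (4.90 to 9.37). In cells with POU4F2 the share was 4.17%. Reads of at least 3 of 7 horizontal cell genes were found in 19.0% of the cells with ATOH7 (9.87 to 31.4) and 2.69% of those without it (1.48 to 4.48). That list holds ONECUT1 and ONECUT2, also made by RGCs, and SEPT4, also a cone marker of the study. Reads of at least 3 of 10 mitotic genes were found in 70.7% of cells with ATOH7 and no POU4F2 and in 29.4% of the 17 cells with both (10.3 to 56), against 58.5% of all cells, and the intervals of the first 2 overlap slightly.

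Cells were clustered without the 9 genes, and classes were named from the marker lists of the study. A class of 139 day 60 cells was RGC-like, with all 10 genes of the RGC list, STMN2, GAP43, NEFL and NEFM among them, above the other cells. That list, chosen by the study on these cells, also holds HOXB5. In RGC-like cells of day 60 the levels were 175 CPM for ELAVL3, 105 for EBF1, 66.7 for ISL1, 63.1 for POU4F2, 48.1 for ATOH7, 15.9 for EBF3 and 14.9 for SNCG. RBPMS, at 8.29 CPM, was higher in Müller glia-like cells, at 18.2, where 16 of 143 had a read. It was also read in 9 of the 15 ECM-like cells of day 60, a class below the 20 cells needed for this comparison. The other 8 genes had their highest CPM in the RGC-like class among the 6 classes with at least 20 day 60 cells, for ELAVL4 on 2 cells. For ATOH7 the share of cells with a read was not highest there, at 11.5% against 17.0% of cone-like and 15.4% of mitotic-like cells. In a cluster led by VSX1 and LHX4, too small for this comparison, 8 of 14 day 60 cells had an ATOH7 read. In the RGC-like class 1 cell held 22.9% of the ATOH7 reads.

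A smaller share of the ATOH7 cells than of the POU4F2 cells was RGC-like. Of the 58 cells with ATOH7, 16 were RGC-like (27.6%, 16.7 to 40.9), 10 mitotic-like, 8 Müller glia-like, 8 cone-like and 8 in a small cluster led by VSX1 and LHX4, which held 14 day 60 cells. Of the 48 cells with POU4F2, 30 were RGC-like (62.5%, 47.4 to 76), 6 Müller glia-like, 3 mitotic-like and 1 cone-like. EBF1 had a second place in cone-like cells, where 23.4% had a read (12.3 to 38) at 39 CPM. In RPE-like cells of day 90, a pigment cell type that should lack neuronal genes, POU4F2, ISL1, EBF1, ATOH7 and SNCG were read in 0 of 78 cells, EBF3 in 4 and ELAVL3 in 7 (8.97%), at the same 50000 reads per cell.

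**Figure D5:**
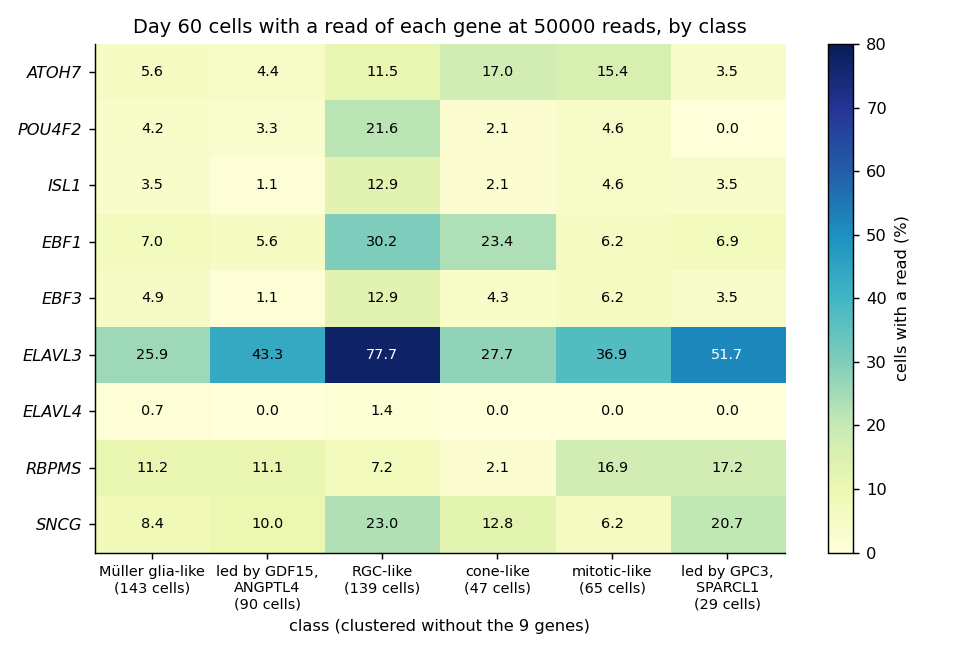
Percentage of day 60 cells with a read at 50000 reads (colour and number) for the 9 genes (rows) in the 6 classes with at least 20 cells (columns), clustered without the genes. ELAVL3 reaches 77.7% and POU4F2 21.6% in the RGC-like class, and ATOH7 is also read in 17.0% of cone-like and 15.4% of mitotic-like cells.

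The RGC-like class of day 60 was mixed by the HOX genes. Of its 139 cells, 99 had reads of at least 3 HOX genes and 40 did not. POU4F2 was read in 22 of the 40 (55%, 38.5 to 70.7) and in 8 of the 99 (8.08%, 3.55 to 15.3). ISL1 was read in 35% (20.6 to 51.7) against 4.04% (1.11 to 10.0). ELAVL3 was read in similar shares of both, in 32 of 40 cells against 76 of 99. ATOH7 was read in 22.5% and 7.07%, EBF1 in 40.0% and 26.3%, and SNCG in 35% and 18.2%, all with overlapping intervals.

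The class changed when the 9 genes were allowed among the clustering genes, where ATOH7, ISL1, EBF1 and ELAVL4 entered. Of the 139 cells, 86 remained in the cluster led by NEFL and 46 joined the cluster led by VSX1. The 86 cells were 95.3% HOX-positive, with POU4F2 at 21.4 CPM and ISL1 at 18.5 CPM. The 60 day 60 cells of the VSX1-led cluster were 28.3% HOX-positive, with ATOH7 at 154, POU4F2 at 126 and ISL1 at 130.4 CPM. As ATOH7, ISL1 and EBF1 helped to make these clusters, their levels in them are partly set by the clustering and are a description. ELAVL3 was at 163 and 152 CPM in the first and second cluster. EBF1 was at 120.0 and 63.9 CPM, with reads in 24 of 86 and 19 of 60 cells. In that setting 3 of the 9 genes had their highest day 60 level in the RGC-like class.

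The RGC-like class made up 24% of day 60 cells (20.6 to 27.7), 6.96% of day 90 cells, 7.58% of chip a and 8.14% of chip b. Within it, ELAVL3 was at 175 CPM at day 60 and 168 at day 90, and was 122 and 119.7 on chips a and b. ISL1 was 60.1 CPM at day 90 and 64.5 and 61 at day 200, against 66.7 at day 60. POU4F2 was at 0 in the 46 RGC-like cells of day 90 and the 27 of chip a, and at 96.9 CPM in the 31 of chip b, where 4 cells had a read. EBF1 was 57 CPM at day 90, and 0 and 110.1 on chips a and b. These later values rest on few cells, for ISL1 6 at day 90, and 2 and 1 on chips a and b.

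RBPMS was found outside the RGC-like class at every day. Of the 135 day 90 cells with a read, 48 (35.6%) were RPE-like and 15 ECM-like, and 5 were RGC-like. A read was found in 61.5% of the RPE-like cells (49.8 to 72.3), at 116 CPM, and in 15 of 30 ECM-like cells, at 234 CPM. At day 200, 62.2% of the 37 ECM-like cells had a read (44.8 to 77.5), at 169 CPM. RGC-like cells were at 4.12 CPM at day 90 and 1.80 at day 200.

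Other RGC and axon genes were compared with the same rule. Of the 14 that passed the filter, 5 were lower at day 90 and 8 at day 200. The neurofilaments NEFL (152 CPM at day 60, 21.5 at day 90) and NEFM (173 and 29.5) had the largest changes at day 90, at -2.57 and -2.37 on the log2 scale. ELAVL2, the paralog of ELAVL3, changed by -2.09, from 88.3 to 16.9 CPM, and STMN2 by -1.61. NRN1, a neuritin made by RGCs, was the single higher one, at 1.03, from 29.8 to 66.3 CPM, and was named after its values were seen. At day 200 GAP43 changed by -2.96 on chip a and -1.23 on chip b. Of 7 other RGC transcription factors that passed, NHLH1 and IRX2 were lower at day 90, and IRX2 and ONECUT1 at day 200. Of 8 proneural genes, SOX11 was lower and NEUROD4 higher at both later days, and HES6 was lower at day 200.

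The genes detected most like each of the 9 over the day 60 cells were taken from 11492 genes read in at least 5% of cells. For ATOH7 they were IGFBPL1 (phi 0.319), NHLH1 (0.243) and CHRNA3 (0.232). For POU4F2 they were CORO2B (0.353), LINGO1 (0.317) and ZNF804A (0.275), and for ISL1 ZNF804A (0.262), SLC17A6 (0.239) and SCHIP1 (0.225). SLC17A6 is the vesicular glutamate transporter of RGCs. For EBF1 they were NFASC (0.280), SYT4 (0.274) and INA (0.264), for EBF3 NFASC (0.218), TMEM201 (0.197) and DOCK11 (0.193), and for ELAVL3 GRIA2 (0.297), INA (0.273) and GAP43 (0.269). INA, GAP43 and SYT4 are general genes of axons and synaptic vesicles. For SNCG they were the pseudogene EIF2S2P2 (0.223), GNG3 (0.196) and TSC22D3 (0.185), and for RBPMS CFI (0.233), RECK (0.225) and IFI16 (0.223). ELAVL4, read in 3 cells, gave no usable ranking.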

How the data were processed

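Single cells of organoids at days 60, 90 and 200 were sequenced by SMART-Seq v4. The authors trimmed reads with Trimmomatic 0.33, aligned them with STAR 2.4.0 to GRCh38.p7 and counted them with HTSeq 0.6. Their listed counting parameters name no strand setting. The deposited values are raw read counts of cells that passed the study's filters. These filters differed by day, with a lower minimum of reads per cell at day 60. At day 90, the first experiment, more spike-in RNA was added and cells with a higher share of it were kept. The stricter cell filter among the alternatives set 150000 reads for all days, and the spike-in difference was not tested. Cells were assigned to 4 chips through the 79 labelled columns. The row named GFP-Spike was taken as the spike-in row and left out of library sizes.

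From the counts, CPM per chip, shares after thinning to 50000 reads and phi coefficients were computed in Python 3.11.15 with scipy 1.17.1. No test was made, since day 60 and day 90 have 1 chip each. Classes came from Seurat 5.3.0 (LogNormalize, 1000 variable genes per time point, CCA with 20 dimensions, resolution 0.6, without the 9 genes). A cluster took a list's name where at least 3 of its genes, each read in 20% of the cluster, were 2-fold higher than in other cells and at least 3 were in the top 10, a rule set after the clusters were seen, and otherwise it was called by its leading genes. Doublets were called with scrublet in scanpy 1.11.5 and kept, with their removal as an alternative. Gene positions and exon lengths are from GENCODE 44, promoters from RefSeq (7 of the 9 genes matched). The code of the fold calls, likeness and clustering was run on simulated data with planted answers. Its chip sums held no single cells rich in reads of a gene, and its clusters were made with the lists that name them. The run therefore checks the code and not the accuracy of the calls made here.

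Named were the 9 genes, their paralogs, the 3 genes with the highest phi per gene, and up to 4 called genes per list. The genes and lists were chosen with earlier results of these data known. Alternatives were spike-in reads in the library size, means of cells, TMM factors (edgeR 4.0.16), stricter cell filters, no filter on rows, an offset of 1 CPM, each day 200 chip left out, other depths and draws, and other clusterings.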

Additional observations from a re-analysis of the deposited data

How the results depend on the processing

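The number of genes lower at day 90 was 5 under all alternatives run. At day 200 it was 3 and became 5 with an offset of 1 CPM and 5 with the cell of most reads per row left out, an alternative chosen after seeing the data. It was 4, with POU4F2 added, under the stricter cell filter, and leaving out either day 200 chip gave 3 to 4. The share of day 60 cells with at least 3 genes was 16.4% without thinning, against 11.9%, and between 9.86% and 14.3% otherwise. The HOX-positive share of cells with ATOH7 or POU4F2 was 47.5% without thinning and 50.6% with at least 2 HOX genes, against 33.7%, and stayed below the other cells, which were at 56.3% and 55.6%. For EBF1 or EBF3 it was 63.9% with at least 2 HOX genes, against 52.6%, and the other cells were at 53%. Genes with their highest day 60 level in RGC-like cells numbered 8, and 3 with the genes kept among the clustering genes. Pairs with a phi above 0.1 numbered 14 or 15 under 4 alternatives chosen after seeing the data. Of 108 recomputed log2 changes of single genes, 89 moved by less than the SD of the day 200 chips, 19 by more. Changes at day 90, which has 1 chip, were set against the same SD. The 19 include values of ELAVL4, whose SD was 0.00, so any shift of it counted as more. The 89 include values that could not move by more. With 1 of the 2 day 200 chips left out, the shift from their mean is always below their SD. Spike-in reads made up at most 0.0165% of the reads of a chip, so adding them could hardly change a value. The EBF3 change at day 90, not a call, turned from -0.05 to 0.04 with means of cells, and no other changed sign. The causes were not tested.

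No paired analysis was possible because the result comes from no test and column numbers mark no shared culture. With 1 chip per early day, differences between days cannot be told apart from differences between chips. A share of 0 allows up to 0.458% of cells at day 90 and 0.843% on chip a. Shares at day 200 rest on 0 to 15 cells for the transcription factors.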

Other observations

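POU4F2 was read in 5 cells of day 200. All 5 came from chip b, and 4 were RGC-like. The fifth, in the cluster led by AOC2 and CPAMD8, rested on 1 read. Before thinning, 7 cells in 5 columns had a read. A read of ELAVL3 was found in 5 of the 5, and of ATOH7, ISL1, EBF1, EBF3, RBPMS and SNCG in 0. Reads of at least 3 HOX genes were found in 0 of them, and reads of at least 3 retinal identity factors in 4. Counts of 0 among 5 cells decide little.

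Of the paralogs of the 9 genes, ELAVL2 was called lower at both later days, as ELAVL3 was, at 88.3 CPM at day 60, 16.9 at day 90, and 33.0 and 26.1 on chips a and b. ISL2, the paralog of ISL1, was 1.38 CPM at day 60, 10.6 at day 90, and 2.30 and 3.81 on chips a and b, and did not pass the filter. Its share of cells was 1.56% at day 60 and 7.33% at day 90. EBF4 was 20.5 CPM at day 60, 35.7 at day 90, and 46.1 and 26.2 on chips a and b, where EBF1 was lower at each later chip. RBPMS2 was 7.83, 16.8, 11.8 and 5.00 CPM in the same order, and EBF2 was 0.524, 0.121, 0 and 0 CPM. ISL1 was read in 8 day 200 cells, of which 3 were RGC-like and 3 in the cluster led by VSX1 and LHX4, and all 8 had reads of at least 3 retinal identity factors.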
